A study of Mus musculus with 2 samples.

Results

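The genes described here are 47 genes known for the germ cells of the testis, of which 46 had a probe set carrying their symbol, among 19505 gene symbols on the array. They were chosen by name from genes of spermatocytes, the cells that pass through meiosis, and spermatids, the cells that follow it, at a time when signals of the same 2 arrays had already been seen. The contrast between the arrays therefore entered the choice, and every value below is a description without a test. Each of the 46 genes was measured by 1 probe set, and Izumo1, the sperm protein that binds the egg, was not measured under that symbol.

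The study compared epididymal fat of WT_A12 and KO_A12 mice. WT_A12 mice were of the A/J-12SM consomic strain, in which chromosome 12 of SM/J replaces that of A/J, and KO_A12 mice were of that strain with a frameshifting CRISPR/Cas9 deletion in exon 1 of Iah1 that is present in every tissue. All mice were singly housed males that received a high-fat diet from 6 weeks of age over 12 weeks and were fasted for 4 h. Total RNA of 3 mice per genotype was pooled, labelled from 100 ng and hybridized to 1 Clariom S Mouse Array, which gives 1 signal for a set of short probes to one gene. The KO_A12 line was bred from homozygotes, so its mice were not littermates of the WT_A12 mice, and the pool, the array and the genotype cannot be told apart.

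Spermatogenesis turns dividing spermatogonia into spermatocytes, then into haploid spermatids and sperm. Spermatids replace their histones by transition proteins and then protamines, build the acrosome, the cap of enzymes and adhesion proteins that meets the egg, and grow a flagellum driven by its own set of glycolytic isozymes. Most of these transcripts are made nearly only in the testis, which lies beside the epididymal fat pad of male mice.

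Signals are given on the log2 scale, and a difference is always KO_A12 minus WT_A12, so that a difference of -1 is an unlogged signal 2 times lower in KO_A12. The signal of Iah1, the targeted esterase gene, was 9.52 in WT_A12 and 8.35 in KO_A12, a difference of -1.17. Its probes could not be placed relative to the deletion from the sources used here, and its signal does not check the genotype. The paper reports that real-time PCR found no Iah1 mRNA, and Western blots no IAH1 protein, in KO_A12 mice. Of 14 white adipocyte genes, 13 were measured and all 13 had signals over 7 on both arrays, with a median of 17.47 in WT_A12 and 17.74 in KO_A12 and a median difference of 0.02. Over all 22206 probe sets the median difference was 0.00, and 95% of the differences lay between -0.84 and 0.86.

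Most of the 46 germ cell genes were near the level of the background controls on both arrays. These controls are 23 rows of probes to sequences absent from the mouse genome, ordered by their content of G and C, and their signals ran from 2.88 to 7.14 in WT_A12 and from 2.83 to 7.21 in KO_A12. The median of the controls was 5.75 and 5.61, and their 95th percentile was 6.95 and 6.83. In WT_A12, 9 of the 46 germ cell genes had a signal over that percentile, while 46.3% of all probe sets did. In KO_A12, 5 of the 46 had one, while 47.3% of all probe sets did. A further view of the same levels is that 27 of the 46 genes lay under the median of the controls on both arrays. The share of all probe sets under that median was not counted. These limits were not matched to the base composition of each probe set, which was not known here. Another 5222 rows, named as negative controls, were not used for the limits. Their median was 6.42 in WT_A12 and 6.47 in KO_A12, and their upper quartile was 7.85 and 7.87.

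The 9 genes over the limit in WT_A12 were Prm1, Prm2, Odf2, Smcp, Hook1, Acr, Adam5, Crisp2 and Sycp3. Of these, Prm1, Odf2, Hook1, Acr and Sycp3 were also over it in KO_A12, and Prm2, Smcp, Adam5 and Crisp2 were not. Some signals over the limit were still under the upper quartile of the negative controls. These were Smcp, Acr, Adam5 and Crisp2 in WT_A12, and Prm1, Odf2 and Acr in KO_A12. Since the tissue was measured in bulk, fewer cells of a type and less RNA per cell cannot be told apart.

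**Figure D1:**
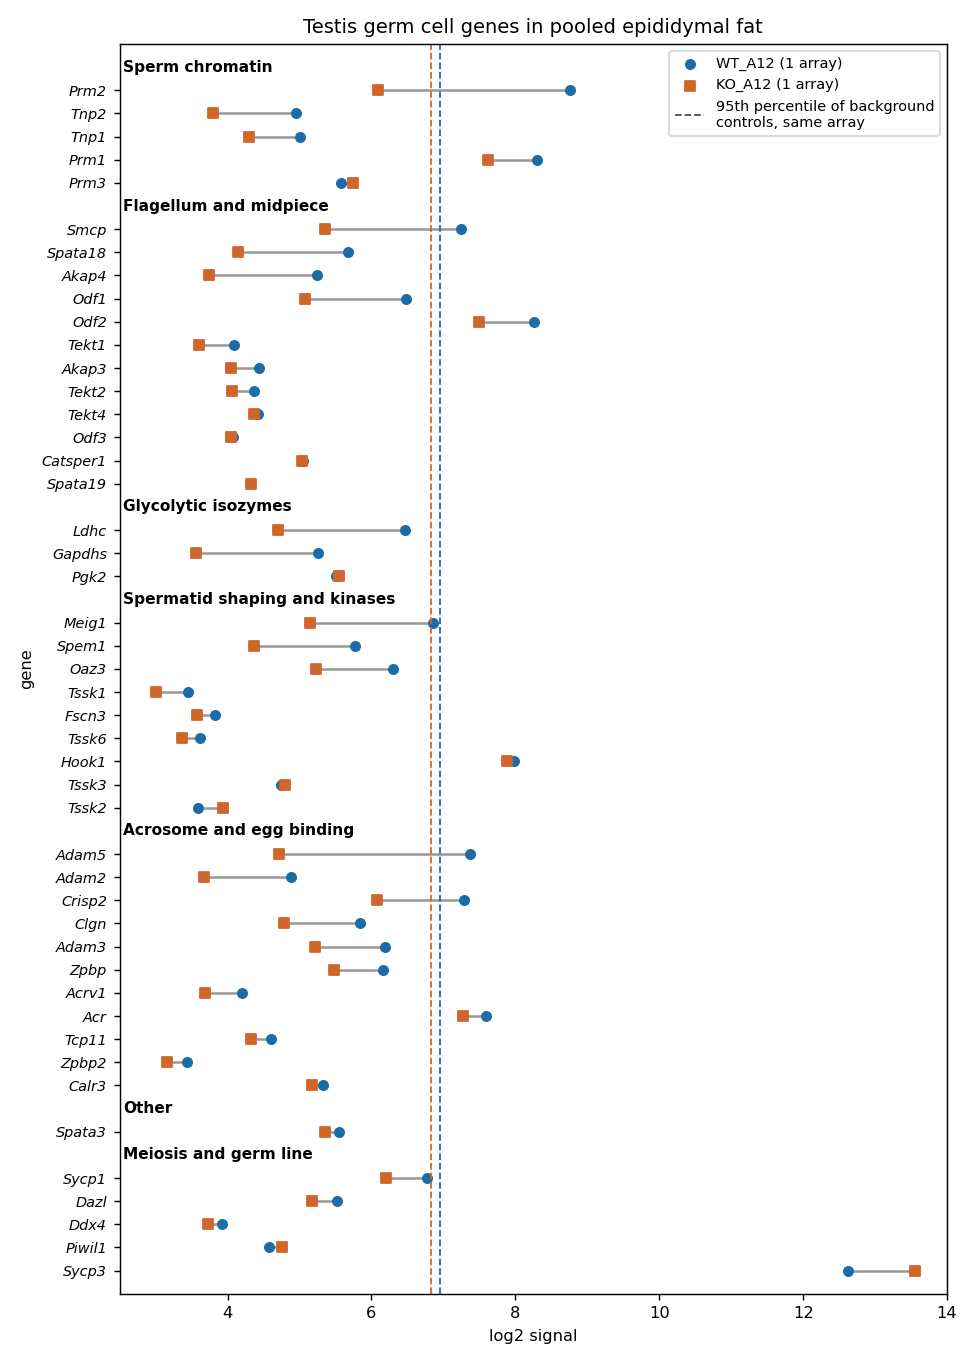
Log2 signal (horizontal axis) of each of the 46 germ cell genes, by role, on the WT_A12 array (circle) and the KO_A12 array (square), with 1 array of a pool of 3 mice per genotype and no error bars. The dashed lines mark the 95th percentile of the background controls, 6.95 in WT_A12 and 6.83 in KO_A12, and most genes lie to the left of both.

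In KO_A12, 39 of the 46 genes had a lower signal and 7 a higher one, with a median difference of -0.47 and a range from -2.67 to 0.93. Of all probe sets, 49.8% were lower. A difference under -1 was found for 15 of the 46 genes (32.6%), against 1.35% of all probe sets, and a difference over 1 for 0 of the 46, against 1.46% of all probe sets. With the cutoffs of the study, which also ask for a log2 signal over 7, taken here as that of the higher array, 4 genes were lower, namely Prm2, Smcp, Adam5 and Crisp2, against 0.757% of all probe sets, and 0 were higher, against 0.567%. Since the choice of the genes used this contrast, nothing is read from these shares, here or in the groups below. With signals under the median of the background controls raised to it, the median difference was -0.14 and 5 genes were lower by over 1. That median is only the difference of the 2 raised floors, on which 27 of the 46 genes lay on both arrays. The share of all probe sets lower by over 1 with these floors was not counted. Where a gene was under the background limit on an array, its difference is that of the 2 signals as listed and does not measure a fold change of the transcript. Just inside the limit of -1 lay Oaz3 at -1.07 and Clgn at -1.06, and just outside it Adam3 at -0.97 and Odf2 at -0.77.

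The 5 genes of sperm chromatin had a median difference of -0.72, with 4 lower and 2 lower by over 1, where 49.8% and 1.35% of all probe sets were. Prm2, one of the protamines that pack sperm DNA, had a signal of 8.76 in WT_A12 and 6.09 in KO_A12, a difference of -2.67, with the KO_A12 signal under the background limit. Prm1, the other protamine, had signals of 8.30 and 7.62, a difference of -0.68, and stayed above the background limit on both arrays. The transition proteins, which stand between histones and protamines, were both under the background limit. Tnp1 had signals of 5.01 in WT_A12 and 4.29 in KO_A12 with a difference of -0.72, and Tnp2 signals of 4.95 and 3.80 with a difference of -1.15. Prm3, a small acidic protein encoded within the protamine cluster, had signals of 5.57 and 5.74 and a difference of 0.17. The 4 genes Tnp2, Prm3, Prm2 and Prm1 are neighbours on chromosome 16, and their differences ran from -2.67 to 0.17.

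Promoter sequences of these 5 chromatin genes are shown because the genes share a pathway and, for 4 of them, a locus, while their differences were unequal. CREM, a transcription factor of spermatids, is known to act on such promoters through elements related to the cyclic AMP response element. Each run holds the 200 bases before the RefSeq start of the gene, 5′ to 3′ on the minus strand of GRCm38.p6. They lie at chr16:10796824-10797023 for Prm1, chr16:10792106-10792305 for Prm2, chr16:10790915-10791114 for Prm3, chr16:10788656-10788855 for Tnp2 and chr1:73015900-73016099 for Tnp1. Capitals mark a match to TGACNTCA or TATAAA on either strand.
Prm1: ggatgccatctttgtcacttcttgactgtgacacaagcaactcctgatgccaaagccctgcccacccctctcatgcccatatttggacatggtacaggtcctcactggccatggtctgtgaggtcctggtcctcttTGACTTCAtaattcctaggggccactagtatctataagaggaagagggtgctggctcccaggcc
Prm2: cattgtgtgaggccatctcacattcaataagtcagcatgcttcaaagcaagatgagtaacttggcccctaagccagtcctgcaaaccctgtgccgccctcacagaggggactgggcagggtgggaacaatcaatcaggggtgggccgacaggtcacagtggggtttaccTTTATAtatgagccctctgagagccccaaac
Prm3: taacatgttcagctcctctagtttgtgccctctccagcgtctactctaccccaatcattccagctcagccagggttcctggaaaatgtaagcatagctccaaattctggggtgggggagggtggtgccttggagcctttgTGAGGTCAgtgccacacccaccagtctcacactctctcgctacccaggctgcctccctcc
Tnp2: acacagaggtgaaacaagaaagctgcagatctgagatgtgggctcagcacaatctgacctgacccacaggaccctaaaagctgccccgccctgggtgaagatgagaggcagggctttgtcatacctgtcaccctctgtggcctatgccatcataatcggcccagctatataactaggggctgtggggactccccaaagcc
Tnp1: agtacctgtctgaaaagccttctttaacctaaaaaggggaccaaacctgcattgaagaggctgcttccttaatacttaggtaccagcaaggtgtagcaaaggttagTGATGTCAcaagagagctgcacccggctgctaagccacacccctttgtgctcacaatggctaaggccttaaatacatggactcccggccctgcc

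A match to TGACNTCA was found in Prm1 (TGACTTCA from position -64 to -57, counted back from the start), Prm3 (position -60 to -53) and Tnp1 (position -94 to -87), and in the last 2 it lies on the opposite strand. Prm2 held TATAAA on the opposite strand, from position -31 to -26, and Tnp2 held neither motif. The genes with the lowest differences of the 5, Prm2 and Tnp2, thus had no TGACNTCA in this window, which says only that these letters are not there. Of the 46 germ cell genes, 38 had a window in the RefSeq promoter table, in which 250 bases before each start were searched on both strands. TGACNTCA was present in 10 of the 38 (26.3%), in 17 of 75 other germ cell genes (22.7%) and in 8.55% of 27025 genes in the table. Among the germ cell genes with a difference under -1 it was present in 2 of 10, Akap4 and Gapdhs, and among the rest in 8 of 28. TGACGTCA, the full element and a special case of TGACNTCA, was present in 0 of the 38 and in 1.77% of all genes. TATAAA was present in 3 of the 38 (7.89%), Prm2, Crisp2 and Fscn3, and in 14.3% of all genes. A match describes the sequence and is not evidence of a bound site.

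Of 12 genes of the flagellum and its mitochondrial sheath, 11 were lower in KO_A12 and 4 had a difference under -1, with a median of -0.44 (all probe sets 49.8% and 1.35%). Smcp, a cysteine-rich protein of the mitochondrial capsule of sperm, had a signal of 7.25 in WT_A12 and 5.36 in KO_A12, a difference of -1.89. Spata18, which takes part in mitochondrial quality control and is also expressed outside the testis, had signals of 5.67 and 4.15, a difference of -1.52. Akap4, a main scaffold of the fibrous sheath, had signals of 5.24 and 3.74, a difference of -1.50. The partner scaffold of Akap4 in that sheath is encoded by Akap3, which had signals of 4.43 and 4.05 and a difference of -0.38. Both scaffolds were under the background limit on both arrays.

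The outer dense fibres, the stiff rods along the sperm tail, gave unequal differences. Odf1 had a signal of 6.48 in WT_A12 and 5.08 in KO_A12, a difference of -1.40. Odf2, which is also a centrosomal protein of other cells, had signals of 8.26 and 7.49, a difference of -0.77, both above the background limit. Odf3 had signals of 4.07 and 4.05, a difference of -0.02. The tektins, filament proteins of the axoneme that motile cilia also contain, had small differences at low signals, -0.49 for Tekt1 (4.09 and 3.60), -0.30 for Tekt2 (4.36 and 4.06) and -0.06 for Tekt4 (4.42 and 4.36). Catsper1, a pore subunit of the calcium channel of the tail, had signals of 5.05 and 5.03 and a difference of -0.01. Spata19, a mitochondrial protein of sperm, had signals of 4.31 and 4.33, a difference of 0.02, which turned negative under quantile normalization and after removal of a trend with signal.

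The listed differences of the 3 glycolytic isozymes of sperm were split, and all 3 genes were under the background limit on both arrays. Gapdhs and Pgk2 were also under the background median on both. Ldhc, the lactate dehydrogenase of germ cells, had a signal of 6.47 in WT_A12 and 4.70 in KO_A12, a difference of -1.77. Gapdhs, the glyceraldehyde-3-phosphate dehydrogenase of spermatids, had signals of 5.25 and 3.56, a difference of -1.69. Pgk2, the phosphoglycerate kinase of late spermatocytes and spermatids, had signals of 5.51 and 5.55, a difference of 0.05. The forms of these enzymes that other tissues use had smaller listed differences than Ldhc and Gapdhs. Pgk2 and its relative Pgk1 were both near 0. With the sperm isozymes under the background limit, no contrast between transcripts is read from this. Ldha had signals of 15.61 and 15.59 (difference -0.02), Gapdh of 16.27 and 16.35 (difference 0.09) and Pgk1 of 11.83 and 11.81 (difference -0.01). Ldhb, the heart-type lactate dehydrogenase, had signals of 6.18 and 6.57 (difference 0.39).

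Somatic relatives of the other germ cell genes also lay within 1 of 0, and the 16 relatives measured had a median difference of 0.00, with 8 lower and 8 higher. Among chaperones of the endoplasmic reticulum, Clgn, the calmegin of germ cells, differed by -1.06 and its relative Canx by 0.25, while Calr3 differed by -0.16 and Calr by 0.08. Among antizymes, which inhibit polyamine synthesis, Oaz3 of spermatids differed by -1.07 and Oaz2 by -0.35. Among the actin-bundling fascins, Fscn3 differed by -0.24 and Fscn1 by 0.88. Hook1 differed by -0.10 beside 0.13 for Hook2 and 0.39 for Hook3, and Tcp11 by -0.28 beside 0.01 for Tcp11l1 and -0.69 for Tcp11l2. Akap1 differed by -0.46, Adam9 by -0.09, Adam17 by -0.45 and Crisp3 by -0.75. The differences of the somatic relatives thus ran from -0.75 to 0.88.

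Of 9 genes that shape the spermatid or signal in it, 7 were lower in KO_A12 and 3 had a difference under -1, with a median of -0.24 (all probe sets 49.8% and 1.35%). Meig1, needed to bring cargo to the manchette, the microtubule skirt that moulds the sperm head, had a signal of 6.86 in WT_A12 and 5.15 in KO_A12, a difference of -1.71. Spem1, which is needed to shed the cytoplasm of the spermatid, had signals of 5.78 and 4.37, a difference of -1.41. Oaz3 had signals of 6.30 and 5.23. Hook1, a linker of the manchette that other cells also express, had signals of 7.99 and 7.89, both above the background limit. The testis-specific serine kinases did not move as 1 block. Tssk1 had signals of 3.45 and 3.01 (difference -0.44), and its neighbour on chromosome 16, Tssk2, had signals of 3.60 and 3.94 (difference 0.35). Tssk6 had signals of 3.61 and 3.37 (difference -0.24) and Tssk3 of 4.75 and 4.79 (difference 0.05, negative under quantile normalization and after removal of a trend with signal). Fscn3 had signals of 3.83 and 3.58, so that Tssk1, Tssk2, Tssk3, Tssk6 and Fscn3 were all under the background median on both arrays.

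All 11 measured genes grouped under the acrosome, egg binding and sperm surface folding were lower in KO_A12, with Tcp11 counted among them. Of the 11, 4 were lower by over 1, and the median was -0.69. Of all probe sets, 49.8% were lower and 1.35% lower by over 1. Adam5, a membrane protein of the sperm surface, had a signal of 7.36 in WT_A12 and 4.72 in KO_A12, a difference of -2.64, or -1.75 with the KO_A12 signal raised to the background median. Its neighbour on chromosome 8, Adam3, needed in mice for sperm to pass into the oviduct, had signals of 6.19 and 5.21, a difference of -0.97. Adam2, the beta subunit of fertilin, had signals of 4.88 and 3.68, a difference of -1.21. These 3 genes encode members of the same family of surface proteins, and their KO_A12 signals were all under the background median.

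Crisp2, a cysteine-rich protein of the acrosome and the outer dense fibres, had a signal of 7.28 in WT_A12 and 6.08 in KO_A12, a difference of -1.21. Clgn, which folds the ADAM proteins in the endoplasmic reticulum, had signals of 5.84 and 4.78, and Calr3, another such chaperone, signals of 5.33 and 5.17. The acrosomal protease acrosin, encoded by Acr, had signals of 7.60 and 7.27, a difference of -0.33, both above the background limit. Of the zona pellucida binding proteins, Zpbp had signals of 6.16 and 5.48 (difference -0.69) and Zpbp2 of 3.43 and 3.15 (difference -0.28). Acrv1, a protein of the acrosomal matrix, had signals of 4.20 and 3.69 (difference -0.51), and Tcp11, which takes part in sperm motility and fertility, had signals of 4.60 and 4.32. Acr was thus above the background limit with a small difference, while Acrv1, Zpbp2 and Tcp11 were far under it. Spata3, placed with no role, had signals of 5.55 and 5.35 and a difference of -0.20.

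Of the 5 genes of meiosis and germ line identity, 3 were lower and 0 had a difference under -1 (all probe sets 49.8% and 1.35%). Their median was -0.20, and nothing is read from a count of 0 among 5 genes. Dazl, Ddx4 and Piwil1 were under the background median on both arrays. Sycp3, a component of the lateral elements of the synaptonemal complex that joins paired chromosomes, had a signal of 12.63 in WT_A12 and 13.55 in KO_A12, a difference of 0.93 towards KO_A12. Its signals were far above the background controls on both arrays, unlike those of Sycp1, the transverse filament of the same complex, with 6.77 and 6.20 (difference -0.57). Dazl, an RNA-binding protein of germ cells, had signals of 5.52 and 5.17 (difference -0.35), Ddx4, the helicase known as Vasa in flies, of 3.92 and 3.73 (difference -0.20), and Piwil1, which binds piRNAs, of 4.58 and 4.76 (difference 0.19). The probe set named Sycp3 therefore ran against the direction of most of these genes.

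By stage, the 33 spermatid genes had a median difference of -0.44, with 29 lower and 10 lower by over 1 (all probe sets 49.8% and 1.35%). The 13 spermatocyte genes had a median of -0.57, with 10 lower and 5 lower by over 1. Without Sycp3, a choice made after its values were seen, the spermatocyte median was -0.77. With Adam2, Adam3, Adam5, Clgn, Calr3, Ldhc and Pgk2, which are transcribed in spermatocytes but used later, counted as spermatid genes, the median was -0.50 over 40 spermatid genes and -0.27 over the other 6 spermatocyte genes. The order of the 2 stages also turned with Acr, Crisp2, Tcp11, Hook1 and Akap3 counted as spermatocyte genes (-0.50 and -0.37) and without the genes that other cells express (-0.44 and -0.35), so no order of the stages is read from these medians. The 8 genes that cells outside the germ line are known to express, Odf2, Tekt1, Tekt2, Tekt4, Spata18, Hook1, Meig1 and Clgn, had a median of -0.63, with 8 lower and 3 lower by over 1.

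**Figure D2:**
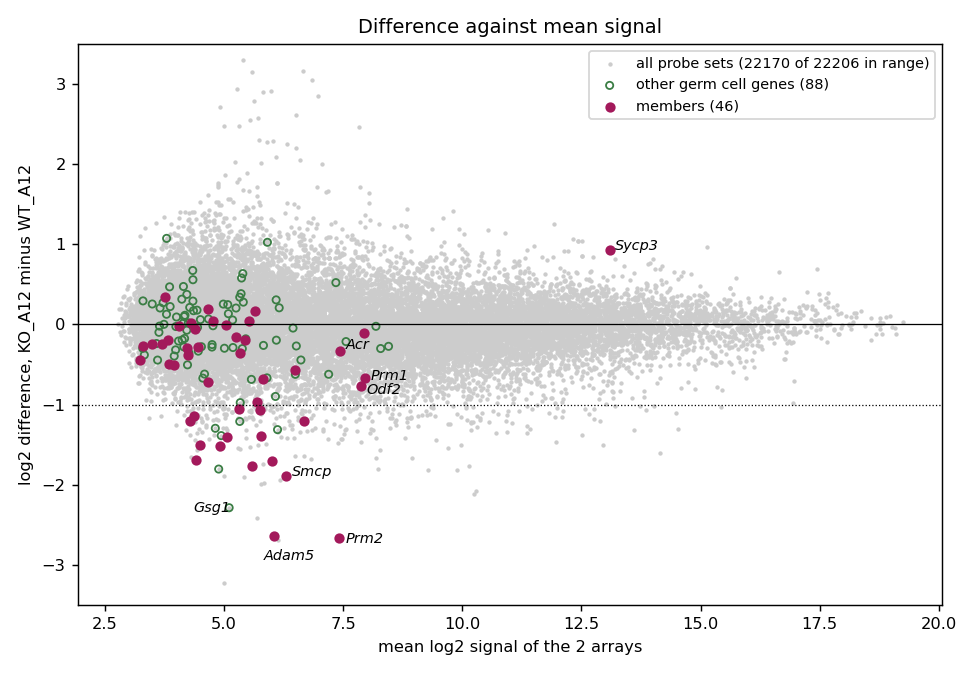
Log2 difference, KO_A12 minus WT_A12 (vertical axis), against the mean log2 signal of the 2 arrays (horizontal axis) for the probe sets within the plotted range (grey), the 46 germ cell genes chosen here (filled) and 88 other germ cell genes (open). The dotted line marks a difference of -1, under which 15 of the 46 and 6 of the 88 lie.

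Because the share of large differences varied with signal, the genes were also counted by the mean of their 2 signals. Up to a mean signal of 5, 5 of 22 germ cell genes (22.7%) were lower by over 1, against 0.812% of all probe sets of that range. From 5 to 6 there were 5 of 13 (38.5%), against 1.98%. From 6 to 7 there were 4 of 5 (80%), namely Smcp, Meig1, Adam5 and Crisp2, against 2.46%. Over 7 there was 1 of 6 (16.7%), Prm2, against 1.36%. By the WT_A12 signal in place of the mean, the counts in the same ranges were 2 of 18 (11.1%), 5 of 12 (41.7%), 4 of 7 (57.1%) and 4 of 9 (44.4%), against 0.255%, 2.16%, 2.88% and 1.65% of all probe sets. The share was highest between 6 and 7 in both counts, in a range that held 5 and 7 genes, and nothing is read from it. Ranges by WT_A12 signal also tilt the counts. Of all probe sets, 19 were lower and 184 higher by over 1 up to a WT_A12 signal of 5, against 168 and 48 over 7.

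**Figure D3:**
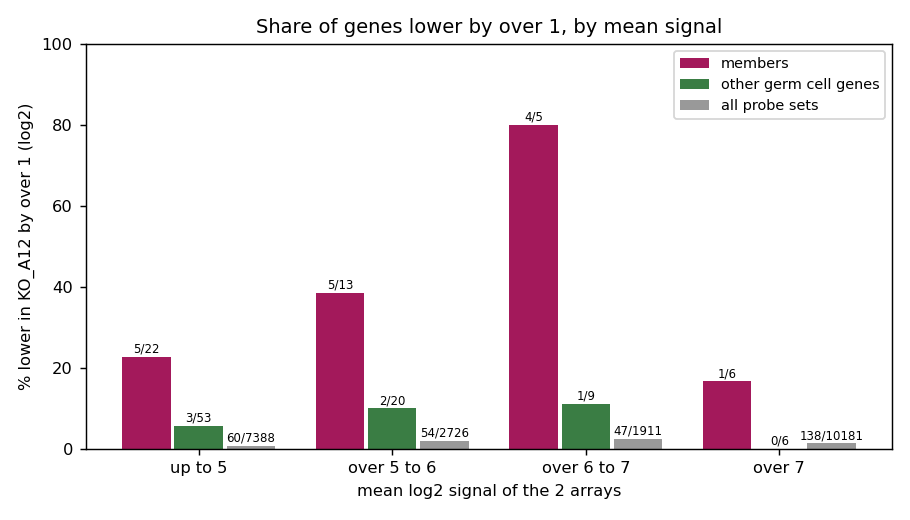
Share of genes in % with a difference under -1 (vertical axis, from 0) by the mean log2 signal of the 2 arrays (horizontal axis) for the 46 germ cell genes chosen here, 88 other germ cell genes and all probe sets. The counts stand over the bars, and the highest bar, 4 of 5, rests on 5 genes.

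Other genes of the same cells, listed from general knowledge of spermatids and spermatocytes, are given for comparison, without a test. This list, too, was made with earlier results of these data known, so it is not an unselected comparison. Of 88 measured, 49 were lower and 6 (6.82%) were lower by over 1, with a median of -0.04. The 50 other spermatid genes had a median of -0.02, with 5 lower by over 1 and 2 higher by over 1, and the 38 other spermatocyte genes a median of -0.19, with 1 lower by over 1. With these added to the 46, the median over 134 genes was -0.23 and 21 (15.7%) were lower by over 1. In every range of mean signal the share lower by over 1 was smaller among the other genes, with 3 of 53, 2 of 20, 1 of 9 and 0 of 6. Of all probe sets in these ranges, 0.812%, 1.98%, 2.46% and 1.36% were. The 46 genes were chosen with this contrast known, so nothing is read from their larger shares.

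Among the other germ cell genes with a signal over 7 on an array, Catsper2, an auxiliary subunit of the Catsper channel, differed by 0.52, the opposite way. Ybx2, which stores mRNA in germ cells, differed by -0.62, and Syce2, of the synaptonemal complex, by -0.30. Tbpl1, a relative of the TATA-binding protein, differed by -0.27 and Hspa2, a heat shock protein of spermatocytes, by -0.21. The following were named after their values were seen. Gsg1, a germ cell gene, had signals of 6.25 in WT_A12 and 3.96 in KO_A12, a difference of -2.29, and Cabs1, a calcium-binding protein of spermatids, had 5.79 and 3.99, a difference of -1.81. Sycp2, the partner of Sycp3 in the lateral element, had signals of 6.78 and 5.47, a difference of -1.31, opposite in sign to that of Sycp3. Cabyr, Spata4 and Txndc2 differed by -1.39, -1.30 and -1.21, while Actl7b and Fam71b differed by 1.07 and 1.02.

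**Figure D4:**
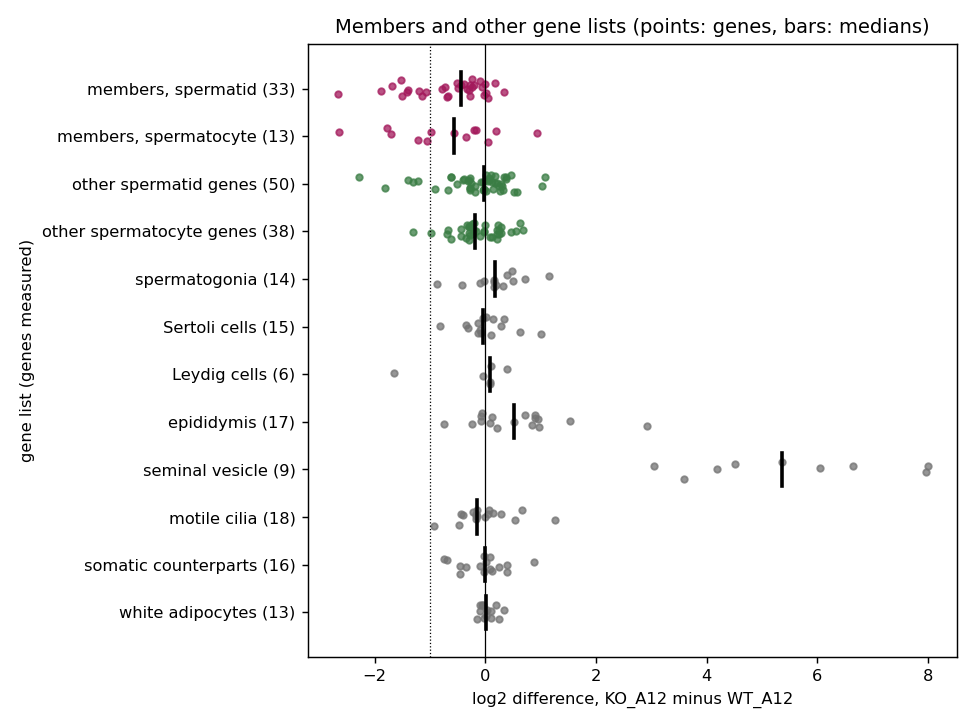
Log2 difference, KO_A12 minus WT_A12 (horizontal axis), of each gene (point) and the median (bar) of the germ cell genes chosen here by stage and of 10 other gene lists (vertical axis, number measured in brackets). The medians of the chosen genes are -0.44 and -0.57, that of the seminal vesicle genes is 5.36, and the other 9 lie between -0.19 and 0.53.

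Gene lists of other organs near the fat pad are given for comparison, without a test. These lists, too, were chosen with earlier results of these data known, so nothing is read from their counts. All 9 measured genes of the seminal vesicle, a gland that adds secretory proteins to semen, were higher in KO_A12 by over 1. Of all probe sets, 1.46% were, and the median difference of the 9 genes was 5.36. Their signals ran from 3.32 to 5.33 in WT_A12 and from 8.38 to 12.96 in KO_A12, and their summed unlogged signal was 205 and 17014. Svs5 and Svs2, secretory proteins of that gland, had signals of 12.25 and 12.96 in KO_A12 against 4.25 and 5.01 in WT_A12, and Sva and Svs4 differed by 6.65 and 6.05. Of 17 measured genes of the epididymis, the duct through which sperm mature, 12 were higher in KO_A12 and 5 lower, with a median difference of 0.53, but 0 were over the background limit in WT_A12 and 1 in KO_A12. Their signals ran from 3.34 to 5.86 in WT_A12 and from 3.49 to 7.44 in KO_A12, with a summed unlogged signal of 369 and 681. Gpx5, a glutathione peroxidase secreted there, had signals of 4.53 and 7.44, a difference of 2.91. Gpx5 was the only epididymis gene over the background limit on an array. Of the 46 germ cell genes, chosen with this contrast known, 39 were lower in the pool in which the seminal vesicle genes were higher. Of the 88 other germ cell genes, also listed with earlier results known, 49 were lower and 39 higher, with a median difference of -0.04. The part of either organ's RNA in these values was not tested.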

How the data were processed

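The deposited values are log2 signals, which the authors obtained in the GeneChip Console Software by SST-RMA (STT-RMA in their spelling), a method that corrects background, scales the arrays to each other and joins the probes of each set into 1 value. RMA is the tool listed in the submitters' processing notes. Which genome build and annotation were used is not given in the sources used here. Of 28846 rows, 6640 controls were set apart and 22206 probe sets kept, 19572 with 1 symbol in the platform annotation, 2634 with none and 0 with several. There were 0 columns without a matching sample. Arrays have no read depth, and their number, 1 per genotype, limits the precision, so no error or p-value is given.

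The members and gene lists were chosen with earlier results of these data known. A gene was to enter by its probe set of highest mean signal. The text names every member, every measured somatic relative, from each other list the genes over 7 on an array with the largest absolute differences (up to 4), and Iah1, and other genes are said to be named after their values were seen. Background limits came from the 23 antigenomic control rows of each array. Alternatives were median centring, quantile normalization, a lowess trend (span 0.3), floors and limits on low signals, other members, stages, folds and the mean. Promoters were RefSeq windows of GRCm38.p6. The computation was tested on simulated data with known changes. These were planted above the low range of signal in which many of the germ cell genes lay. The simulation therefore checked the calculation and not differences at low signal. The tools were matplotlib 3.10.9, statsmodels 0.14.6, scipy 1.17.1, numpy 2.4.6 and pandas 2.3.3 under Python 3.11.15.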

Additional observations from a re-analysis of the deposited data

How the results depend on the processing

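With 1 array of pooled RNA per genotype there was no spread to test against, and the number of arrays limits the precision. No paired analysis was possible because only 1 array was made per genotype. Under median centring, quantile normalization or removal of a lowess trend the median of the 46 genes stayed between -0.51 and -0.47 and the count lower by over 1 between 15 and 16. Of the single genes, 46, 44 and 44 kept their direction and moved by less than 0.2. The exceptions were Spata19 (-0.054 under quantile normalization, -0.044 without the trend) and Tssk3 (-0.031 and -0.018). Low signals mattered most. With signals raised to the median of the background controls, the median was -0.14 for all, spermatid and spermatocyte genes, which is the difference of the 2 floors, since 27 of 46 genes lay on the floor on both arrays. The count was then 5. Of the 19 genes not on the floor on both arrays, 9 moved by less than 0.2, 9 moved further, such as Ldhc (-0.86), Spem1 (-0.17) and Clgn (-0.23), and Prm3 turned to -0.0097. With only genes over 7 on an array, or only those over the background limit in WT_A12, the medians were -0.77 over 9 genes, -0.77 over 7 spermatid and -0.86 over 2 spermatocyte genes, and the count was 4. A signal over 7 in WT_A12 left a count of 4, and a 3-fold limit left 6. Prm2, Smcp, Adam5 and Crisp2 passed these signal limits only through WT_A12, where they were higher. The medians and counts under these signal limits therefore follow in part from the limits and lend no support. The shares of all probe sets were not counted with the raised floor or the 3-fold limit. The means were -0.68 for all and -0.66 for spermatid genes. With the other germ cell genes joined, chosen after seeing the data, the medians were -0.23 for all, -0.24 for spermatid and -0.21 for spermatocyte genes. The spermatocyte median was also -0.35 without genes that other cells express, -0.27 with 7 genes moved out, -0.37 with 5 moved in and, chosen after seeing the data, -0.77 without Sycp3. Against the median of the background controls, 18 genes in WT_A12 and 9 in KO_A12 were above background. The shares of all probe sets over that median were not counted, so nothing is read from these 2 counts. The cause of these shifts was not tested where the setting itself does not give it.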

Other observations

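Of the cells that surround germ cells in the testis, and of spermatogonia, few markers stood above the background controls. Of 14 spermatogonial genes, 4 were lower in KO_A12 and 10 higher, with a median difference of 0.18. The 3 of them over the 95th percentile of the controls on both arrays were Zbtb16 (difference 0.15), Etv5 (-0.09) and Gfra1 (0.50), which other tissues also express. Of 15 Sertoli cell genes, 8 were lower and 7 higher, with a median of -0.05, and only Sox9, which differed by -0.10, was over that percentile. Of 6 Leydig cell genes measured, 2 were lower and 4 higher, with a median difference of 0.09, and 0 were over that percentile on either array. Cyp17a1, the steroid hydroxylase of these androgen-producing cells, named after its values were seen, had a signal of 5.14 in WT_A12 and 3.49 in KO_A12, a difference of -1.65. Lin28a of spermatogonia and Cldn11 of Sertoli cells, named in the same way, differed by 1.15 and 1.01.

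Genes of motile cilia, which share tektins and axonemal parts with the sperm tail, had a median difference of -0.15 over 18 measured, with 11 lower, 0 lower by over 1 and 1 higher by over 1, Cfap52 (1.26), named after its value was seen. Cfap43, the one of these genes with a signal over 7 on an array, differed by -0.17.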
